A study of Mus musculus with 6 samples.

Results

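The BCL2 family sets whether a cell releases cytochrome c from its mitochondria and dies. RNA of 10 of its genes was compared between mouse CD4+ T cells labelled as Wtap KO and wild-type (WT) CD4+ T cells. The 10 genes were listed by name from the known family, out of 55177 genes with a matched transcript and 17610 genes tested. They comprised the anti-apoptotic Bcl2, Bcl2l1, Bcl2l2 and Mcl1, the effectors Bax and Bak1, and the BH3-only genes Bcl2l11, Bbc3, Pmaip1 and Bid. All 10 passed the filter on low counts, and their 48 annotated transcripts were all listed in the deposited tables.

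Each group held 3 mRNA libraries, numbered 1 to 3, from cells of strain C57BL/6J. The protein made from Wtap helps to place the nuclear writer of m6A, the methyl mark on adenosines of mRNA. The protocol, worded alike for both groups, first gave 1 µM 4-hydroxytamoxifen for 24 h to deplete Wtap. Stimulation with 1 µg/mL anti-CD3 and 2.5 µg/mL anti-CD28 followed for 40 to 48 h in Th1 conditions. These were 10 µg/mL anti-IL-4 and 10 ng/mL IL-12. A stay in 200 IU/mL IL-2 and a harvest on day 4 came last. Neither the Cre driver, the deleted part of Wtap, nor whether WT cells carried Cre or each library had its own animal is given in the sources used here. The p-values below therefore measure the spread between these libraries, which may be technical for any that share an animal. Wtap KO 3 differed from the other libraries in genes tied to sex, with values given below.

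Anti-apoptotic proteins of the family hold the effectors and the BH3-only proteins in check through a groove on their surface. BH3-only proteins sense stress or loss of growth factors, occupy that groove or engage the effectors directly, and free BAX and BAK to permeabilise the outer mitochondrial membrane. In T cells, MCL1 and BCL2 are known to support survival, and BIM, the product of Bcl2l11, is known to drive the death of activated T cells when cytokine is withdrawn.

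The stretch that gives the family its BH3 name is short enough to show. The coding sequences below come from the GENCODE M21 transcripts (GRCm38), 1 for each gene, namely the protein-coding transcript of highest mean TPM. Each line is 33 bases long, reads 5′ to 3′ on the coding strand, and has in capitals the 18 bases that encode leucine, any 3 residues, glycine or alanine, and aspartate. They are shown because this core is what members of opposite function have in common.
Mcl1 (chr3:95659430-95659462, plus strand): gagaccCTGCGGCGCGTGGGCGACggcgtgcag
Bcl2 (chr1:106712575-106712607, minus strand): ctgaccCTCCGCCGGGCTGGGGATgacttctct
Bax (chr7:45465997-45466029, minus strand): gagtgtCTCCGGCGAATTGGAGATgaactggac
Bcl2l11 (chr2:128147144-128147176, plus strand): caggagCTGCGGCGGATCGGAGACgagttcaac
Bbc3 (chr7:16313767-16313799, plus strand): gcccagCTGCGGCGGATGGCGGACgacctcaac
The same core was found once each in the coding sequences of Bcl2l1, Bak1 and Bid, and at 2 places in Pmaip1-201. It was not found in Bcl2l2-201, which says only that these residues are not in that coding sequence.

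Because Wtap acts on m6A, the letters GGACT, a common form of the sequence around methylated adenosines, were also searched on the mRNA strand. In the 100 bases on each side of the stop codon's first base, 5 of the 10 members held GGACT, against 24.4% of 11273 such windows in the leading protein-coding transcripts of all genes searched. Methylation itself was not analysed here, and a match of letters is not a methylated site. The matches of the called members Mcl1 and Bax are shown with the motif in capitals, all of them within exons and past the stop codon.
Mcl1, 21 bases after (chr3:95660830-95660858, plus strand): gagtgcaataggGGACTcttaaagctcca
Mcl1, 85 bases after (chr3:95660894-95660922, plus strand): atttatgaaggtGGACTtgaagctgccca
Bax, 19 bases after (chr7:45461829-45461857, minus strand): tcccactgccttGGACTgtgtcttttctt
Bak1, Bbc3 and Bid, which were not called, also held GGACT in this window, Bbc3 at 2 places. Their log2 fold changes were -0.06, -0.54 and 0.45. Bcl2l2, the third member that was called, had none in this window, and neither did Bcl2, Bcl2l1, Bcl2l11 or Pmaip1. Whether the motif goes with a change in level was not tested.

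The libraries held 32363139 to 44039467 estimated counts. Wtap was at 114, 119.6 and 118.5 CPM in the Wtap KO libraries and at 114, 106 and 94.4 CPM in the WT libraries (log2 fold change 0.16 ± 0.10 SE, edgeR quasi-likelihood adjusted p = 0.371). The deleted part is not given, so its total does not check the labels. Its transcripts were split differently. Wtap-201 stood at 35.4 to 41.3 TPM in Wtap KO and at 16.2 to 18.7 TPM in WT. Wtap-205 stood at 4.63 to 5.50 TPM in Wtap KO and at 18.2 to 27.0 TPM in WT, and Wtap-203 at 8.31 to 11.4 TPM in Wtap KO and at 0 to 0.236 TPM in WT. Wtap KO 3 stood apart from the other 5 libraries in genes tied to sex. Its Xist level was 3.80 CPM, while theirs ran from 1980 to 4448 CPM, and its Kdm5d level was 63.3 CPM, while theirs ran from 2.44 to 3.54 CPM. Gene calls that change without Wtap KO 3 are given both ways for the members and the listed genes below, but not for the cell type markers that follow. Of the 8 CD4 T cell markers, Cd3g and Cd4 fell and 6 did not pass. Their summed level was 3577 to 4238 TPM in Wtap KO and 4260 to 4945 TPM in WT. Dendritic cell markers summed to 36.1 to 48.5 TPM in Wtap KO and 10.6 to 33.8 TPM in WT, with 2 of 7 tested, Cd74 and H2-Aa, higher. H2-Ab1 went the other way in WT 1, at 30.3 TPM, against 7.09 to 8.35 TPM in Wtap KO and 6.13 and 7.22 TPM in the other WT libraries. The list's remaining genes, Itgax, Flt3, Zbtb46, Xcr1, Clec9a and Siglech, were each at or under 0.356 TPM in every library, and Zbtb46 was at 0.264 to 0.356 TPM in Wtap KO and 0.149 to 0.206 TPM in WT. B cell markers summed to 3.52 to 4.79 TPM in Wtap KO and 2.13 to 3.67 TPM in WT (1 of 5 tested higher). CD8 T cell markers summed to 11.4 to 13.9 TPM in Wtap KO and 7.18 to 7.79 TPM in WT (1 of 2 tested higher). Markers of NK cells, macrophages, granulocytes, and erythroid cells and platelets had overlapping sums, and none of their tested markers passed; C1qa and S100a9 were at 0 in all 6 libraries. The part of these markers in the results was not tested, and in bulk RNA fewer cells of a type and less RNA per cell cannot be told apart.

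Of the 10 members, 3 rose in Wtap KO cells, 0 fell and 7 did not pass an adjusted p of 0.05 (edgeR quasi-likelihood test, Benjamini-Hochberg adjustment over all genes tested). The risers were Mcl1, Bcl2l2 and Bax, a pair of protectors and an effector of death. Over all genes tested, 9.23% were called, 5.75% higher and 3.49% lower. Without Wtap KO 3, 0 members rose and 1, Bcl2l11, fell, and 704 of 18193 genes were called, against 1626 of 17610 with all libraries. In 6 members every Wtap KO library lay above every WT library in CPM (17.2% of all genes), in 1 every Wtap KO library lay below (15.5% of all genes), and in 3 the groups overlapped. The median log2 fold change of the members was 0.48, and that of all genes was -0.00058. At an unadjusted p under 0.05 there were 6 members (26.3% of all genes). The members' share is set beside these background shares as a description and was not tested against them.

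**Figure D1:**
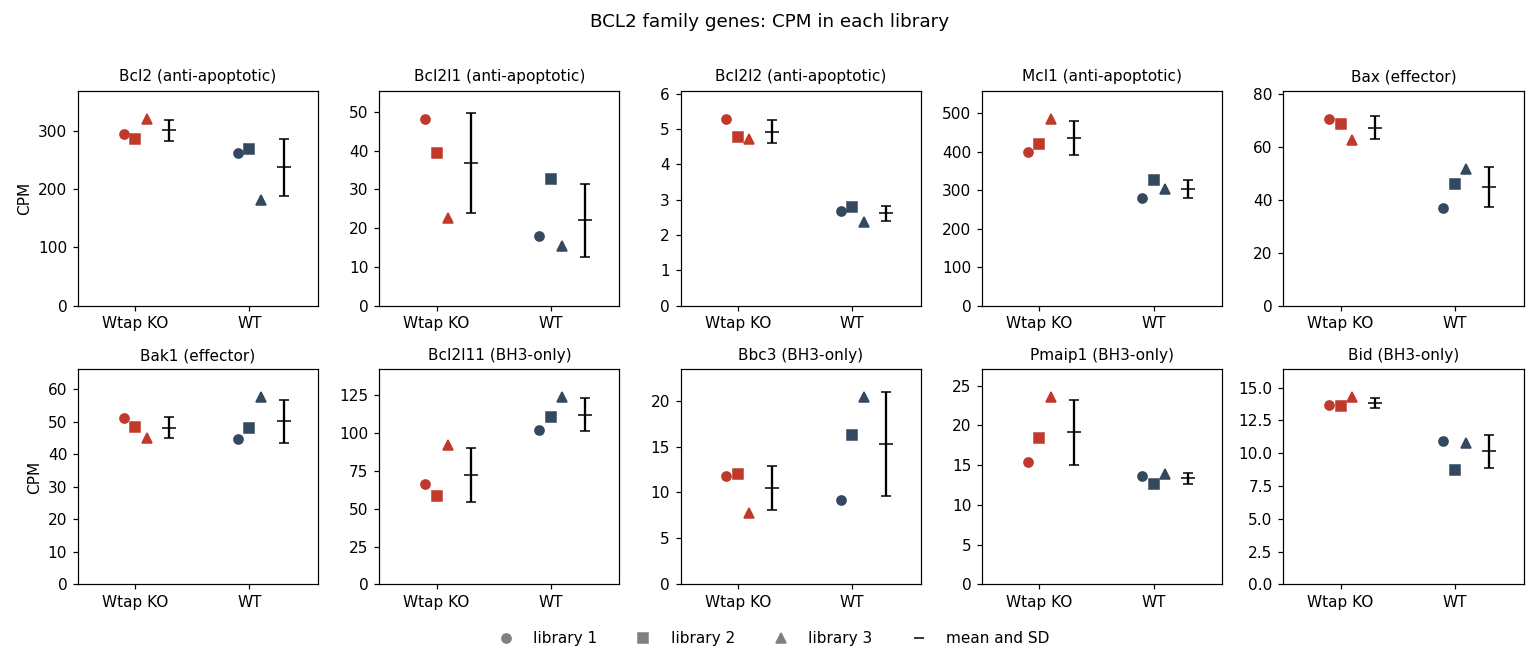
Level of each of the 10 BCL2 family genes in CPM (vertical axes, each starting at 0) in the 3 Wtap KO libraries (red, left) and the 3 WT libraries (dark blue, right); symbols mark library numbers and black bars the mean and SD. Mcl1, Bcl2l2, Bax, Bcl2, Pmaip1 and Bid lie higher in every Wtap KO library, Bcl2l11 lies lower in every one, and Bak1, Bcl2l1 and Bbc3 overlap.

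Mcl1, a short-lived protector that binds BAK and BIM, was the most abundant member per length in every library. Mcl1 (ENSMUSG00000038612, GRCm38 chromosome 3, 95658788 to 95663176, plus strand) stood at 399.7, 421 and 486 CPM in Wtap KO libraries 1, 2 and 3, against 279, 326 and 303 CPM in WT libraries 1, 2 and 3. All Wtap KO libraries were above all WT libraries, and Wtap KO 3 was the highest. The log2 fold change was 0.52 ± 0.11 (SE), a 1.44-fold rise, with an edgeR adjusted p of 0.0249. The call was lost without WT 2 (edgeR adjusted p = 0.0642), Wtap KO 1 (0.0636), Wtap KO 2 (0.0997) or Wtap KO 3 (0.0772), where the log2 fold change ran from 0.44 to 0.59.

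Bcl2l2 encodes BCL-W, a protector close in structure to BCL2, and was the least abundant member per length. Bcl2l2 (ENSMUSG00000089682, chromosome 14, 54883377 to 54888234, plus strand) was at 5.29, 4.78 and 4.71 CPM in Wtap KO, against 2.69, 2.78 and 2.38 CPM in WT. These values rest on 194 to 213 estimated counts per Wtap KO library and 87 to 97 per WT library. Spread within either group was small beside the gap, and the log2 fold change was 0.92 ± 0.18 (SE), a 1.89-fold rise (edgeR adjusted p = 0.0176). It lost the threshold without WT 2 (edgeR adjusted p = 0.0576), Wtap KO 1 (0.0959), Wtap KO 2 (0.0854) or Wtap KO 3 (0.0529). It was also lost in the 3 settings that account for transcript length. Its log2 fold change was 0.70 with an offset for effective length (edgeR adjusted p = 0.0822), 0.53 on log2(TPM + 1) (limma adjusted p = 0.0777) and 0.73 on log2(TPM + 0.1) (limma adjusted p = 0.0864). Of its 4462 exon bases, 594 are shared with Gm20521 on the same strand, so some of its reads could be split with that gene.

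Bcl2, the founding protector of the family, and Bcl2l1, which encodes BCL-XL, did not pass. Bcl2 was at 294, 287 and 321 CPM in Wtap KO, against 262, 269 and 181 CPM in WT. The groups did not overlap, but WT 3 lay far under the other WT libraries, and the log2 fold change was 0.34 ± 0.15 (SE, edgeR adjusted p = 0.195). Bcl2l1 was at 48.2, 39.3 and 22.7 CPM in Wtap KO, against 17.9, 32.7 and 15.4 CPM in WT. Here the groups overlapped, since WT 2 exceeded Wtap KO 3. Its log2 fold change of 0.74 ± 0.34 (SE) was larger than that of Mcl1, with a wider error, and the edgeR adjusted p was 0.220.

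Bax rose and Bak1, the other effector, did not pass. Bax (ENSMUSG00000003873, chromosome 7, 45461697 to 45466898, minus strand) was at 70.7, 68.7 and 62.5 CPM in Wtap KO, against 36.8, 46.0 and 51.8 CPM in WT. The Wtap KO libraries lay close together and above all WT libraries, among which WT 1 was lowest. The log2 fold change was 0.59 ± 0.14 (SE), a 1.50-fold rise (edgeR adjusted p = 0.0343). The call was lost without WT 2 (edgeR adjusted p = 0.102), Wtap KO 1 (0.134), Wtap KO 2 (0.133) or Wtap KO 3 (0.0714). Bak1 was at 51.3, 48.3 and 45.0 CPM in Wtap KO, against 44.7, 48.1 and 57.5 CPM in WT, so that the WT range enclosed the Wtap KO range. Its log2 fold change was -0.06 ± 0.12 (SE, edgeR adjusted p = 0.824), and the sign turned on log2(TPM + 1), where it was 0.020, and at 0.19 when only transcripts annotated as protein_coding were summed, and at 0.053 without WT 3. In TPM, which is per length, Bax exceeded Bak1 by 3.25, 3.39 and 3.31 times in Wtap KO, against 2.00, 2.36 and 2.16 times in WT. Every Wtap KO library had the higher Bax to Bak1 ratio. These TPM sum all annotated transcripts of each gene, coding or not. Among them, Bax-206 (retained_intron) averaged 30.3 TPM in Wtap KO and 18.4 TPM in WT. Bak1-201, annotated as a target of nonsense-mediated decay, averaged 16.8 TPM in both groups.

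Among the BH3-only genes, Bcl2l11 had lower values in Wtap KO, just short of the threshold. Bcl2l11 (ENSMUSG00000027381, chromosome 2, 128126038 to 128162547, plus strand) was at 65.9, 58.1 and 92.1 CPM in Wtap KO, against 102, 110.4 and 123 CPM in WT. All Wtap KO libraries were below all WT libraries, with Wtap KO 3 nearest to WT. The log2 fold change was -0.63 ± 0.17 (SE) and the edgeR adjusted p was 0.0517. It passed in 7 of 16 alternative settings, among them the DESeq2 Wald test (adjusted p = 0.00872), and with 1 library left out it passed without Wtap KO 3 (edgeR adjusted p = 0.0216) and without WT 1 (0.0450). Over all 16 settings the adjusted p ran from 0.00872 to 0.194 and the log2 fold change stayed below 0.

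Bbc3, which encodes the p53-inducible PUMA, also had the lower mean in Wtap KO but overlapped between groups. It was at 11.8, 12.0 and 7.75 CPM in Wtap KO, against 9.20, 16.3 and 20.3 CPM in WT. WT 1 was below Wtap KO 1 and 2, and the log2 fold change was -0.54 ± 0.29 (SE, edgeR adjusted p = 0.277). Without WT 1 it was -0.80, with an edgeR adjusted p of 0.0301, and without WT 3 it was -0.28 (edgeR adjusted p = 0.558).

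Pmaip1 and Bid had the higher values in all Wtap KO libraries, and neither passed. Pmaip1 encodes NOXA, which binds MCL1, and was at 15.4, 18.4 and 23.5 CPM in Wtap KO, against 13.6, 12.6 and 13.9 CPM in WT (log2 fold change 0.52 ± 0.17 SE, edgeR adjusted p = 0.0921). The values of Wtap KO spread from just above WT to Wtap KO 3, the highest. Bid links death receptors to mitochondria once cut by caspase-8, and was at 13.7, 13.6 and 14.3 CPM in Wtap KO, against 10.9, 8.72 and 10.8 CPM in WT (log2 fold change 0.45 ± 0.14 SE, edgeR adjusted p = 0.0859). The Wtap KO libraries of Bid lay within a narrow band. Of its 3550 exon bases, 628 overlap Bcl2l13 on the opposite strand. Bak1 likewise shares 437 of 2407 exon bases with Ggnbp1 and Bcl2 558 of 9157 with D630008O14Rik, both on the opposite strand. Since the strand setting of the counting is not given, reads in such overlaps cannot be told apart.

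**Figure D2:**
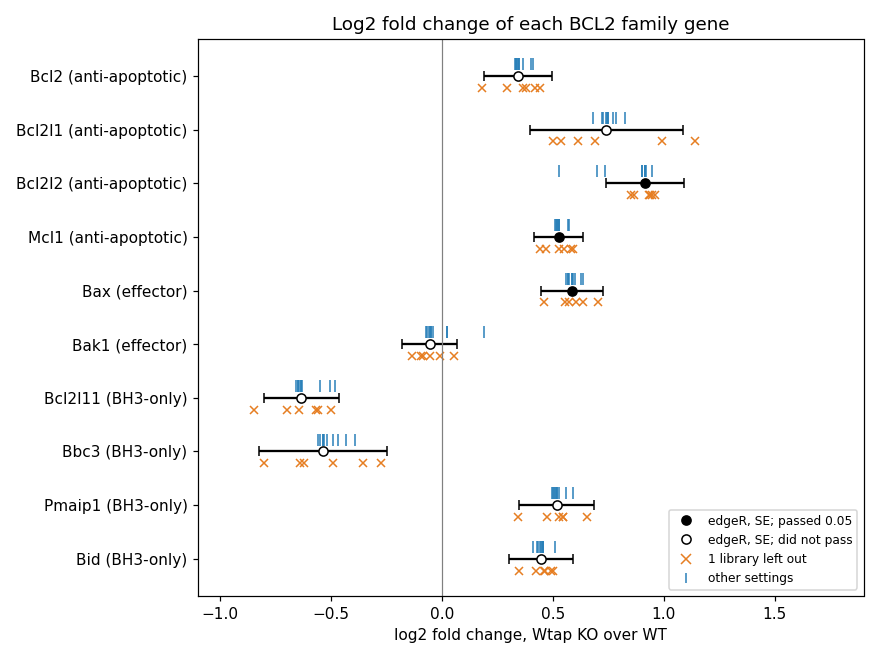
Log2 fold change of each member, Wtap KO over WT (horizontal axis), with its SE from edgeR; filled circles passed an adjusted p of 0.05 and open circles did not, orange crosses leave out 1 library each and blue ticks use another setting. Mcl1, Bcl2l2 and Bax keep positive values throughout, Bcl2l11 and Bbc3 keep negative ones, and Bak1 crosses 0.

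Levels can be compared between genes only per length, and TPM here was summed over all transcripts of a gene, coding or not. In summed TPM, the order of means over the 6 libraries was Mcl1, Bax, Bcl2, Bak1, Bcl2l11, Bcl2l1, Bbc3, Bid, Pmaip1 and Bcl2l2. Mcl1 averaged 133 ± 16.0 TPM in Wtap KO and 89.0 ± 7.13 TPM in WT (SD, n = 3 each), and Bax averaged 102 ± 4.65 TPM in Wtap KO and 66.1 ± 8.74 TPM in WT. Both stood clear of each other and of all other members within each group. Bcl2 and Bak1 overlapped in WT (24.7 to 38.4 and 28.1 to 33.6 TPM) but not in Wtap KO (40.1 to 47.2 and 29.5 to 32.9 TPM). Bak1 and Bcl2l11 likewise overlapped in WT only, at 28.1 to 33.6 and 24.4 to 28.8 TPM. Bcl2l11 lay above Bcl2l1 in WT, at 24.4 to 28.8 against 10.2 to 19.5 TPM, whereas in Wtap KO the ranges of these genes overlapped, at 15.6 to 23.9 and 17.4 to 30.9 TPM. Bcl2l1 and the next gene, Bbc3, overlapped in WT (Bbc3 at 7.40 to 13.7 TPM) and not in Wtap KO (Bbc3 at 6.01 to 9.12 TPM). Bbc3, Bid and Pmaip1 formed a low group, at 6.01 to 11.3 TPM in Wtap KO and 5.23 to 13.7 TPM in WT, in which neighbours were not separated within WT or Wtap KO. Bcl2l2 was lowest in each library, at 2.65 to 3.13 TPM in Wtap KO and 1.32 to 2.07 TPM in WT.

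Summed by role, the anti-apoptotic genes were at 201, 193 and 219 TPM in Wtap KO, against 135, 157 and 123 TPM in WT, and the effectors at 140.0, 131 and 127 TPM in Wtap KO, against 84.3, 99.1 and 106 TPM in WT. Both sums were higher in every Wtap KO library, although Bak1 and Bcl2l1 overlapped between groups in CPM. Transcripts not annotated as protein_coding are part of all these sums. The BH3-only genes together were at 41.8, 41.0 and 51.6 TPM in Wtap KO, against 45.4, 48.4 and 54.8 TPM in WT, and overlapped. Mcl1 was the largest part of the first sum, Bax of the second and Bcl2l11 of the third in each library.

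Ratios between partners within a library were described without a test. Mcl1 exceeded Bcl2l11 by 7.23, 7.92 and 6.34 times in Wtap KO, against 3.40, 3.72 and 3.02 times in WT, while the Bcl2 to Bcl2l11 ratio was 2.53, 2.56 and 1.98 in Wtap KO, against 1.50, 1.47 and 0.857 in WT. Neither ratio overlapped between groups, and in WT 3 Bcl2 lay below Bcl2l11. This separation follows from the gene values and adds nothing to them. Mcl1 and Bcl2 were higher and Bcl2l11 lower in every Wtap KO library in TPM, and neither Bcl2 nor Bcl2l11 was called. The Bax to Bcl2 ratio did overlap, at 2.48, 2.53 and 2.07 in Wtap KO and 1.53, 1.82 and 2.93 in WT, where WT 3 with its low Bcl2 had the highest value of all. These are ratios of RNA over all transcripts of a gene, coding or not, and give no protein level.

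**Figure D3:**
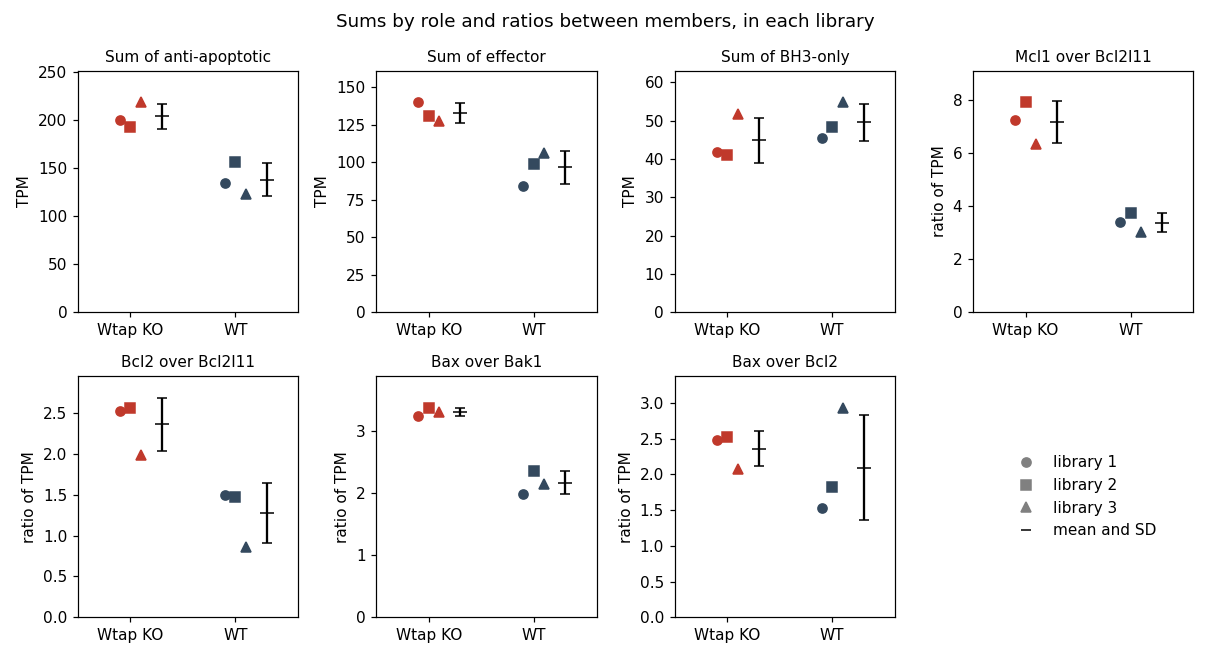
Summed TPM of the anti-apoptotic, effector and BH3-only members and TPM ratios between members (vertical axes from 0) in each Wtap KO library (red, left) and WT library (dark blue, right), with mean and SD in black. The Mcl1 to Bcl2l11 ratio is 6.34 to 7.92 in Wtap KO and 3.02 to 3.72 in WT, whereas the Bax to Bcl2 ratio overlaps.

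Transcripts of each gene were then tested on their own. Of the 48 transcripts of the members, 34 passed the filter and 0 were called by edgeR's quasi-likelihood test, where 0.72% of 46935 transcripts were called. At an unadjusted p under 0.05 there were 10 of the 34 (14.3% of all transcripts), and limma on log2(TPM + 1) also called 0. The smallest adjusted p was 0.103. For transcript usage, limma compared each transcript with the summed others of the same gene as a log2-ratio. It called 0 of 33 (0.429% of 39137 over all genes), with 1 at an unadjusted p under 0.05 (9.71% over all genes) and 0 calls by edgeR with the gene total as offset or by diffSpliceDGE. In simulated data, edgeR called 67.8% of transcripts given a log2 fold change of 3. For usage, limma called 28.5% of them, edgeR with the offset 14% and diffSpliceDGE 41%. The 0 calls therefore do not show that transcripts or their usage were unchanged.

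In the estimated counts, Mcl1 fell on a single transcript. Mcl1-201, whose coding sequence of 331 codons holds the BH3 core shown above, was at 123, 124 and 151 TPM in Wtap KO, against 83.1, 96.9 and 87.0 TPM in WT (log2 fold change 0.53 ± 0.11 SE, edgeR adjusted p = 0.103). It took up the whole of the gene's counts in each library. The other annotated transcript, Mcl1-202, was listed at 0 in all 6 libraries. Taken over all of the gene's counts, the limit for counting error only is a share of 0.00552% in Wtap KO and 0.00948% in WT. All exons of Mcl1-202 lie within exons of Mcl1-201, so few reads can tell them apart and the real limit is looser.

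Bax was spread over 4 transcripts. Bax-201, which encodes the full effector of 192 codons, was at 53.0, 50.4 and 44.4 TPM in Wtap KO, against 31.0, 33.7 and 38.6 TPM in WT (log2 fold change 0.47 ± 0.15 SE, edgeR adjusted p = 0.229). Bax-203, in which an exon of 612 bases runs through the first intron of Bax-201 (45466220 to 45466831), was at 13.0, 11.3 and 12.8 TPM in Wtap KO, against 3.51, 5.20 and 6.82 TPM in WT. Its log2 fold change of 1.21 ± 0.27 (SE) was the largest of the 4 and did not pass (edgeR adjusted p = 0.118). Bax-206, annotated as retained_intron, has an exon (45463160 to 45463503) that extends one of Bax-201 (45463399 to 45463503) into the neighbouring intron. It was at 29.5, 31.0 and 30.3 TPM in Wtap KO, against 15.2, 20.6 and 19.4 TPM in WT (log2 fold change 0.68 ± 0.18 SE, edgeR adjusted p = 0.163). All Wtap KO libraries lay above all WT libraries for these 3 (over all transcripts tested, 22.7% had groups that did not overlap in TPM), while Bax-205 overlapped, at 8.46 to 11.5 TPM in Wtap KO and 6.39 to 10.1 TPM in WT. Bax-202 and Bax-204 were listed at 0 in each library.

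As a share of the gene, Bax-203 made up 17.6%, 16.5% and 19.2% of Bax counts in Wtap KO, against 9.33%, 11.2% and 13.6% in WT. This was the member transcript with the smallest p for usage (log2-ratio 0.76 ± 0.22 SE, limma unadjusted p = 0.0145, adjusted p = 0.364). Bax-203 and Bax-206 together, a sum chosen after their values were seen, took 34.8%, 35.9% and 38.6% in Wtap KO, against 26.2%, 30.0% and 30.5% in WT. The full-length Bax-201 held 53.6% ± 2.60 in Wtap KO and 58.6% ± 3.61 in WT (SD, n = 3 each).

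Bcl2l11 is known for splice forms of differing length that share the BH3 region. Bcl2l11-205, the form of 196 codons, held 91.0% ± 1.41 of the counts in Wtap KO and 91.8% ± 1.99 in WT (SD, n = 3 each). It was at 12.5, 10.2 and 17.6 TPM in Wtap KO, against 18.3, 20.0 and 22.3 TPM in WT, without overlap (log2 fold change -0.64 ± 0.20 SE, edgeR adjusted p = 0.215). Bcl2l11-202, whose 91 codons contain no BH3 core, was at 1.07, 1.27 and 1.69 TPM in Wtap KO, against 2.69, 2.68 and 1.64 TPM in WT, with WT 3 inside the Wtap KO range. Bcl2l11-204, a short form of 110 codons that keeps the core, was at 2.15, 3.14 and 2.35 TPM in Wtap KO, against 1.46, 1.34 and 3.48 TPM in WT. Its groups overlapped, and its log2 fold change of 0.23 ± 0.46 (SE) had the opposite sign from the long form (edgeR adjusted p = 0.888). The form of 140 codons, Bcl2l11-203, reached at most 0.364 TPM, and the other 4 of the 8 annotated transcripts stayed under a mean of 1 TPM in both groups.

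**Figure D4:**
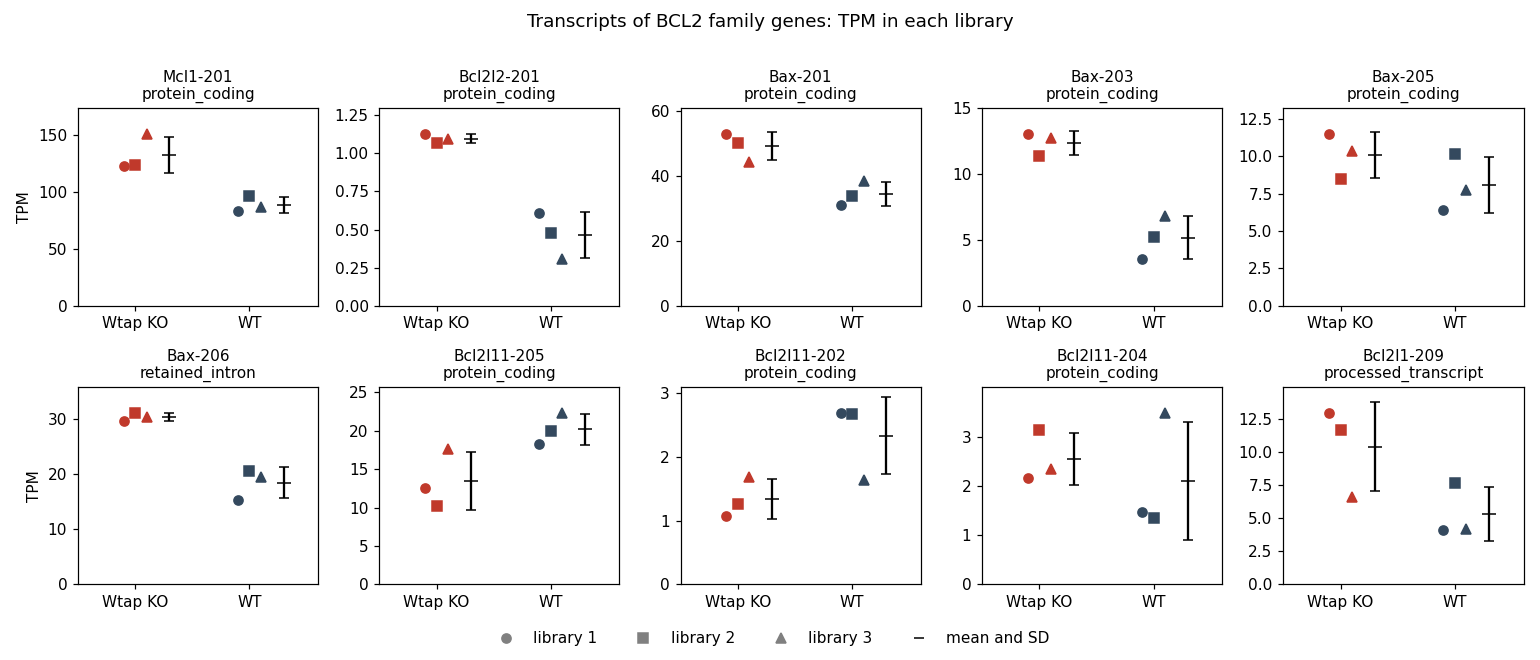
TPM of 10 transcripts of Mcl1, Bcl2l2, Bax, Bcl2l11 and Bcl2l1 (vertical axes from 0) in each Wtap KO library (red, left) and WT library (dark blue, right), with mean and SD in black and the annotated biotype in each title. Mcl1-201, Bcl2l2-201, Bax-201, Bax-203 and Bax-206 lie higher in all Wtap KO libraries and Bcl2l11-205 lies lower, where 22.7% of all transcripts tested had groups that did not overlap.

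For the remaining members no transcript passed. Bcl2l2-201 was at 1.13, 1.07 and 1.09 TPM in Wtap KO, against 0.607, 0.479 and 0.305 TPM in WT (log2 fold change 1.19 ± 0.29 SE, edgeR adjusted p = 0.142). The retained_intron transcript Bcl2l2-202 was at 1.34 to 1.70 TPM in Wtap KO and 0.738 to 1.24 TPM in WT. Bcl2l1-201, coding for BCL-XL, and the noncoding Bcl2l1-209, which shares part of its last exon, were at 4.26 to 11.5 and 6.58 to 13.0 TPM in Wtap KO, against 3.20 to 6.44 and 4.13 to 7.69 TPM in WT, overlapping in both cases. Bcl2l1-206, of 209 codons, reached 0.653 to 1.89 TPM in Wtap KO and 0.175 to 1.25 TPM in WT. Bcl2l1-202, with the same coding sequence as Bcl2l1-201, and Bcl2l1-204 were at 2.08 to 3.12 and 0.876 to 1.94 TPM in Wtap KO, against 0.889 to 3.19 and 0 to 2.28 TPM in WT, and overlapped. Bcl2-201 held 98.8% ± 0.160 of Bcl2 counts in Wtap KO and 98.6% ± 0.516 in WT, and Bcl2-202 was at 1.25 to 1.39 TPM in Wtap KO and 0.808 to 1.83 TPM in WT.

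Estimated counts of Bak1 were assigned mostly to transcripts annotated as targets of nonsense-mediated decay, namely 86.1% ± 0.265 in Wtap KO and 88.2% ± 1.53 in WT (SD, n = 3 each). Shares of counts weigh long transcripts more. These targets, Bak1-201 and Bak1-204, have 1974 and 1958 bases, and the coding Bak1-203 has 902, so their share per length is smaller. Nearly all of their exon bases also lie in exons of the coding Bak1-202, so few reads can tell them from it. The share assigned to decay targets is therefore uncertain. Bak1-201, which includes an exon of 20 bases absent from the coding Bak1-202, was at 16.6, 17.2 and 16.4 TPM in Wtap KO, against 12.5, 17.2 and 20.8 TPM in WT, where the WT range enclosed the Wtap KO range. Bak1-204 overlapped too, at 4.53 to 7.85 TPM in Wtap KO and 5.39 to 8.20 TPM in WT. The coding Bak1-203, of 146 codons, was at 7.73 to 8.12 TPM in Wtap KO and 6.65 to 7.29 TPM in WT. The longer coding form, Bak1-202 of 209 codons, reached at most 0.409 TPM, in Wtap KO 1. The BH3 and GGACT searches above therefore used Bak1-203 for this gene, with the window placed around its own stop codon. The sum of protein_coding transcripts of Bak1 likewise rests mostly on this shorter form. Pmaip1-201 and Bid-201 led their genes, at 5.40 to 8.21 and 4.87 to 6.37 TPM in Wtap KO, against 4.48 to 4.61 and 3.86 to 4.54 TPM in WT. Their second transcripts, Pmaip1-202 and Bid-202, were at 1.87 to 3.13 and 1.38 to 2.23 TPM in Wtap KO, against 0.735 to 1.65 and 1.03 to 1.42 TPM in WT, without overlap only for Pmaip1-202. Bbc3-201 was at 4.25 to 6.31 TPM in Wtap KO and 4.18 to 9.77 TPM in WT. The retained_intron Bbc3-203 was at 2.35, 0.419 and 0.584 TPM in Wtap KO, against 2.35, 1.87 and 3.21 TPM in WT, overlapping through Wtap KO 1 (log2 fold change -1.23 ± 0.68 SE, edgeR adjusted p = 0.494).

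Relatives of the 10 members were read from the same fit. In it, 9.23% of all genes tested were called and 26.3% had an unadjusted p under 0.05. The DESeq2 Wald test, run on all genes with a count, called 2496 of 34583, to be set beside its counts for the lists below. Of 15 other genes of the family, 11 were tested, 0 rose, 1 fell and 10 did not pass (edgeR; 3 at an unadjusted p under 0.05, and 1 called by DESeq2), with a median log2 fold change of -0.11. The one that fell was Bnip3l, which encodes NIX, a receptor for the removal of mitochondria, at 149, 149.9 and 151 CPM in Wtap KO, against 237, 216 and 224 CPM in WT (log2 fold change -0.59 ± 0.09 SE, edgeR adjusted p = 0.00734). The groups were far apart beside their spread, though the call was lost without Wtap KO 2 (edgeR adjusted p = 0.0589). Its relative Bnip3, a hypoxia-induced gene, was at 43.1, 33.1 and 14.6 CPM in Wtap KO, against 212, 68.1 and 38.0 CPM in WT, where WT 1 alone was far above the rest (log2 fold change -1.81 ± 0.70 SE, edgeR adjusted p = 0.168). Without WT 1 that log2 fold change was -0.81 (edgeR adjusted p = 0.469). Bcl2a1b and Bcl2a1d, near-identical protectors between which reads can be split, were at 11.1 to 14.9 and 4.37 to 6.34 CPM in Wtap KO, against 5.33 to 11.5 and 1.20 to 3.94 CPM in WT, and neither passed. Bcl2l13, a mitochondrial relative of the family, had a log2 fold change of -0.11 ± 0.10 (SE). The effector Bok, the BH3-only Hrk, Bcl2l10 and Bcl2a1a were too low to be tested.

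Downstream of the family, 0 of 17 genes of the mitochondrial death machinery were called by edgeR (9.23% of all genes tested). At an unadjusted p under 0.05 there were 3 (26.3% of all genes), and the median log2 fold change of the list was -0.07. The DESeq2 Wald test called 1 of the 17, Vdac3. The channel genes Vdac1, Vdac2 and Vdac3 were lower in every Wtap KO library (15.5% of all genes), as were Mtch2 and Diablo, while Htra2 was higher in every one. The channel genes had log2 fold changes of -0.48 ± 0.21, -0.26 ± 0.09 and -0.31 ± 0.10 (SE) and edgeR adjusted p of 0.193, 0.125 and 0.0798. Vdac1 was at 105 to 115 CPM in Wtap KO, against 215.5, 121 and 121 CPM in WT, where WT 1 stood apart. With 1 library left out its log2 fold change ran from -0.63 to -0.15. Casp8, the protease that cuts BID, was at 206 to 239 CPM in Wtap KO and 168 to 230.5 CPM in WT. Xiap, an inhibitor of caspases, and Apaf1, the scaffold of the apoptosome, had log2 fold changes of -0.19 ± 0.13 and 0.13 ± 0.15 (SE), and Cycs, which encodes cytochrome c, had -0.19 ± 0.15.

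Upstream, 17 regulators of the family or of its proteins were tested, of which 1 rose, 1 fell and 15 did not pass by edgeR (9.23% of all genes tested were called). At an unadjusted p under 0.05 there were 4 (26.3% of all genes), and DESeq2 called 3. The median log2 fold change of the list was 0.10. The fall was that of Ywhaz, a 14-3-3 protein known to hold phosphorylated BAD in the cytosol, at 421, 422 and 410 CPM in Wtap KO, against 639, 589 and 613 CPM in WT (log2 fold change -0.56 ± 0.09 SE, edgeR adjusted p = 0.00932). It lost the threshold without Wtap KO 1 or Wtap KO 2 (edgeR adjusted p up to 0.0652). The p53 relative Trp73 rose at a low level, 1.34, 1.01 and 1.06 CPM in Wtap KO against 0.249, 0.438 and 0.518 CPM in WT (log2 fold change 1.49 ± 0.33 SE, edgeR adjusted p = 0.0276). That call was lost in 8 of the 15 settings that tested it, among them the omission of WT 2 or of any Wtap KO library, with an adjusted p of up to 0.120. Rela, an NF-kB subunit known to induce Bcl2l1, was at 81.6, 76.1 and 71.7 CPM in Wtap KO, against 45.1, 55.1 and 62.5 CPM in WT. The groups did not overlap, and the log2 fold change was 0.50 ± 0.13 (SE, edgeR adjusted p = 0.0525), with a call in 8 of 16 alternatives (adjusted p 0.0218 to 0.184). Trp53 itself was at 111 to 127 CPM in Wtap KO and 119 to 159 CPM in WT (log2 fold change -0.22 ± 0.13 SE, edgeR adjusted p = 0.325). Foxo1 and Foxo3, factors that can induce Bcl2l11 and Bbc3, had log2 fold changes of -0.0036 ± 0.12 and 0.27 ± 0.16 (SE). Huwe1, a ubiquitin ligase of MCL1, had 0.029 ± 0.097, and Usp9x, which removes ubiquitin from MCL1, had -0.14 ± 0.12.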

How the data were processed

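Libraries were grouped by sample title. The submitters' processing notes name kallisto 0.44.0, DESeq2 and the build GRCm38 (mm10). The authors deposited, for each library, estimated counts and TPM of 142647 transcripts, where TPM is the estimated count over effective length scaled to a fixed total. Neither the annotation release nor the strand setting is given in the sources used here. Transcripts were matched by identifier to GENCODE M21 (99.15%, holding 99.71% to 99.75% of counts). Gene values are sums of these counts over transcripts, rounded to whole numbers.

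Genes and transcripts were tested with edgeR 4.0.16 (R 4.3.3; quasi-likelihood, robust, TMM, filterByExpr). Genotype was the single term, with Benjamini-Hochberg adjustment over all features tested, at a threshold of 0.05. CPM are counts over TMM library sizes. SE is the absolute log2 fold change over the root of F. Transcript usage was tested with limma 3.58.1 on log2-ratios of estimated counts with a pseudocount of 0.5; scripts were tested on simulated data. DESeq2 1.42.0 was an alternative. Intervals and limits cover counting error only. Named were all 10 members, their transcripts with a mean of at least 1 TPM in 1 group, and the called genes of 3 lists with a few abundant uncalled ones; other list genes were named after their values were seen. Members and lists were chosen with earlier results of these data known.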

Additional observations from a re-analysis of the deposited data

How the results depend on the processing

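The 3 calls among the members each stood in most settings that keep all libraries and in 2 of the 6 fits with 1 library left out. The number of called members ran from 0 to 5 with 1 library left out (0 without WT 2, Wtap KO 1 or Wtap KO 2) and from 2 to 4 in the other settings, and over all genes from 361 to 2282 with 1 library left out. All genes called numbered 2496 with the DESeq2 Wald test and 1061 with the replicate block, against 1626. Of all calls, 62.2% were higher, against 73.8% with limma on log2(TPM + 1) and 73.3% on log2(TPM + 0.1) and 52.6% with DESeq2. Member transcripts and member usage stayed at 0 calls in each setting run (0 to 0 with 1 library left out), while calls over all transcripts numbered 338, 0 to 17 with 1 library left out and 0 with the replicate block, and usage calls over all genes numbered 168, 82 with the gene total as offset and 0 with the replicate block. Of the members' gene values under alternatives, 131 kept their sign and side of the threshold, 17 lost a call, 8 gained one and 4 turned sign.

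Same-numbered libraries had deviations correlated at -0.103, 0.0502 and 0.140, and differently numbered ones at -0.198 to 0.154. With deviations taken within groups of 3, these values cannot decide whether equal numbers mark a pair. With the replicate block 2 members were called, Bcl2l11 (adjusted p = 0.0351) and Bcl2l2, whereas Bax (0.0644) and Mcl1 (0.0537) were not. Bnip3 was called lower with it (log2 fold change -1.58, adjusted p = 0.0123).

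Signs that turned, none of them a call, were those of the Bak1 log2 fold change, at 0.020 on log2(TPM + 1), 0.021 on log2(TPM + 0.1), 0.19 on protein_coding transcripts and -0.13 to 0.053 with 1 library left out. Transcript log2 fold changes with 1 library left out ran from -0.079 to 0.58 for Bcl2-202, -0.018 to 0.85 for Bcl2l11-204, -0.23 to 0.14 for Bak1-201 and -0.43 to 0.040 for Bak1-204, and limma gave 0.021 and 0.024 for Bak1-201 with pseudocounts of 1 and 0.1. Usage log2-ratios with 1 library left out ran from -0.12 to 0.46 for Bcl2-201, -0.46 to 0.12 for Bcl2-202, -0.31 to 0.073 for Bcl2l11-205, -0.12 to 0.44 for Bcl2l1-202, -0.61 to 3.04 for Bcl2l1-204, -0.65 to 0.60 for Bid-201, -0.32 to 0.25 for Bak1-201 and -0.45 to 0.16 for Bak1-204. Usage also turned for Bcl2l1-202 (-0.13), Bcl2l1-204 (-0.056) and Bak1-201 (-0.0027) with diffSpliceDGE, for Bcl2l1-204 (-0.16) with the gene total as offset and for Bid-202 (-0.041) with a pseudocount of 5. The cause was not tested. Among the members Bcl2l2 had the fewest counts, and Bcl2l1 and Bbc3 the widest SE.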
